A study of Mus musculus with 246 samples.

Results

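The comparison described here is the response of the basolateral amygdala (BLA) to a short social encounter. It rests on all 41 BLA libraries of a set of 246, which covers 6 brain regions. Every mouse was an adult male of the outbred CD1 strain. In 20 mice the brain was collected after 10 minutes with an unfamiliar mouse (SocialInteraction), and in 21 mice it was collected without that exposure (NoInteraction). Each set held 3 early-life backgrounds. Ctrl_Vehicle mice came from litters reared in standard cages by dams given the empty gel, ELA_Vehicle mice came from litters raised with limited bedding and nesting material (early life adversity, ELA) by dams given the same gel, and ELA_SAFit2 mice came from adversity litters whose dams received the gel loaded with SAFit2. SAFit2 inhibits FKBP51, the co-chaperone of the glucocorticoid receptor that the gene Fkbp5 encodes, and the dams rather than the pups were injected, so pups met the compound through the mother. There were 7 mice in each of the 6 groups of this design except for 6 in Ctrl_Vehicle with interaction. The time that passed between the encounter and tissue collection is not given in the sources used here.

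The BLA is the part of the amygdala in which principal excitatory neurons join sensory and contextual input to emotional value, and it takes part in social approach and avoidance. A new social partner is an arousing event for a mouse. Neuronal firing raises immediate early genes within minutes to an hour, first transcription factors such as Fos and Egr1 and then effector genes such as Nptx2 and Homer1. Arousal also releases corticosterone, which enters the brain and acts through glucocorticoid receptors in neurons, glia and vessel cells. Protein-folding genes of the cytosol (heat shock proteins) and of the endoplasmic reticulum (ER chaperones) answer to heat, secretory load and calcium in the ER.

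Total counts of the BLA libraries lay between 21275185 and 34541728. They were 21275185 to 34541728 without interaction and 23677760 to 33567799 with it, so depth overlapped between the sets. Levels are given in CPM, which are counts scaled to a common library size and composition, and differences as log2 of social over no interaction with the standard error, from one fit that held the early-life group as a covariate. The median difference of all 15992 tested protein-coding genes was 0.00 on the log2 scale. Markers of BLA principal neurons (10 of 10 tested) summed to between 3580 and 6030 CPM after interaction and between 3140 and 5810 CPM without it. None of the 10 passed the threshold, but 9 of the 10 differences were above 0, with a median of 0.10. Choroid plexus markers varied far more, from 23.8 to 5340 CPM after interaction and from 27.5 to 5910 CPM without it, and the first principal component, with 38.4% of the variance, followed them. None of those 7 markers differed between the sets. In bulk tissue, fewer cells of a type and less RNA per cell cannot be told apart.

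The mice were numbered in 10 runs that each held only one interaction status. What a run stands for is not given in the sources used here, and within a run it cannot be told apart from the interaction. Each of the 4 sets of 32 successive numbers held both statuses, and differences within those sets are given beside some of the leading genes.

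After interaction, 139 genes were higher (0.869% of those tested) and 118 were lower (0.738%) at an adjusted p under 0.05. The changes were small. Among the genes that rose, the median size was 0.16 on the log2 scale and 10 exceeded 0.5. Among those that fell, the median was 0.12 and 8 exceeded 0.5. All 257 genes kept one sign in the 3 early-life groups, and in the 4 sets of mouse numbers 245 of the 257 did. The pooled test chose these genes from the same mice, which favours one sign in every part of them. Such agreement is therefore not separate evidence of a shared response. The number of calls rested in part on few animals. Without mice 57, 59 and 63, which had the highest levels of many of the genes that rose and were left out for that reason, 23 genes remained higher and 15 lower, and all 257 kept their direction. The kept direction is likewise not separate evidence, since most of the mice that chose the genes were fitted again. With the 10 runs in place of mice as the unit, 2 genes were higher and 2 lower. No member of any of the gene lists described below was called in that fit.

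**Figure D1:**
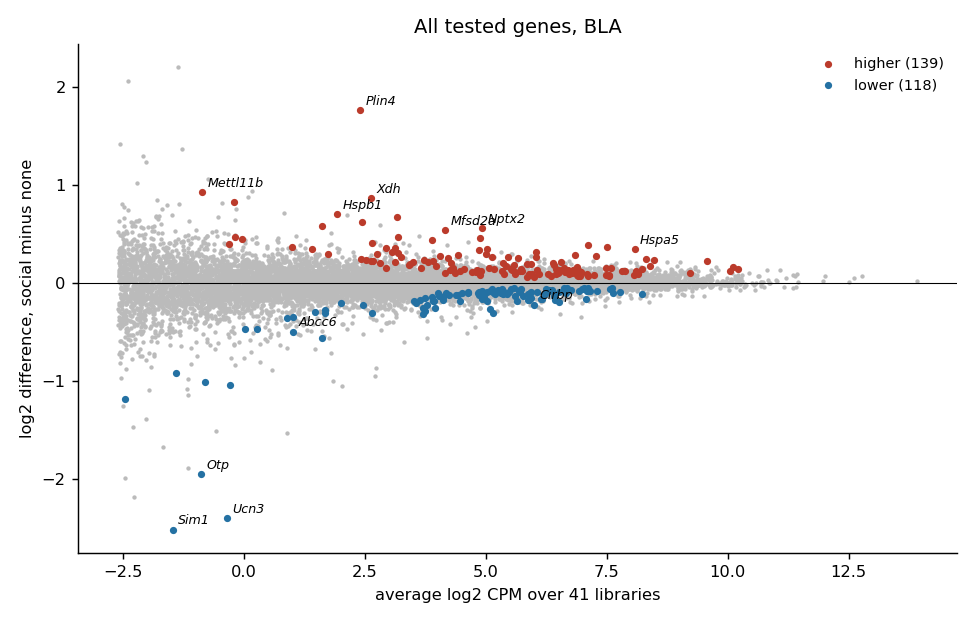
Difference between social and no interaction on the log2 scale (vertical axis) against the average log2 CPM over 41 libraries (horizontal axis) for each of 15992 genes. The 139 genes that were higher (red) and 118 that were lower (blue) mostly differ by well under 0.5, with Plin4 at 1.76 highest and Sim1 at -2.52 lowest among them.

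The gene with the smallest p was Mfsd2a, which encodes a transporter of lysophosphatidylcholine carrying omega-3 fatty acids at the blood-brain barrier (chr4:122946850-122961188, minus strand, GRCm38). Its level was 12 to 17.9 CPM with a median of 14.3 without interaction and 16.9 to 35.6 CPM with a median of 20.4 after it. Of the 20 social mice, 16 lay above the highest mouse without interaction. The difference was 0.54 ± 0.06 (adjusted p = 4.19e-06), or 1.45-fold, and the differences within the 4 sets of mouse numbers were 0.32, 0.75, 0.48 and 0.45. Mfsd2a was one of 4 genes called with runs as the unit, with an adjusted p of 0.0369.

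Genes that glucocorticoids are known to induce were led by Plin4, which codes for a protein coating lipid droplets (chr17:56100591-56109803, minus strand). Plin4 stood at 1.18 to 4.70 CPM (median 2.09) without interaction and at 2.03 to 46.7 CPM (median 6.15) after it. The value of 46.7 came from 1 Ctrl_Vehicle mouse, number 57, and 14 of the 20 social mice exceeded every mouse without interaction. The difference was 1.76 ± 0.27 (adjusted p = 0.000251), a 3.39-fold higher level, and it was 1.26 (adjusted p = 8.64e-05) without mice 57, 59 and 63. Within the sets of mouse numbers it was 1.04, 2.02, 0.98 and 1.72. With runs as the unit, by limma, it was 1.48 (adjusted p = 0.0753).

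Of the 23 glucocorticoid-responsive genes listed, 22 were tested, 3 rose (13.6%, beside 0.869% of all genes), none fell and 19 did not pass, with a median difference of 0.09. Beside Plin4 these were Fkbp5 and Cdkn1a. Fkbp5, whose product is the target of SAFit2, lay at 31.8 to 50.6 CPM (median 39.9) without interaction and 37.9 to 83.1 CPM (median 45.3) after it. Its difference of 0.26 ± 0.07 had an adjusted p of 0.0409, and this call was kept in 22 of the 41 fits that left out 1 library. Within the sets of mouse numbers the Fkbp5 difference was 0.05, 0.46, 0.22 and 0.12, and it no longer passed with the sets as a covariate (adjusted p = 0.0662). Cdkn1a, a cell cycle inhibitor, differed by 0.35 ± 0.09 (adjusted p = 0.0348), and its call was kept in 33 of the 41 and lost with the sets as a covariate (adjusted p = 0.0593). Plin4 was then the one call of the list. Without mice 57, 59 and 63 Plin4 was again the one call, Fkbp5 differed by 0.15 (adjusted p = 0.182), Cdkn1a by 0.21 (adjusted p = 0.157), and the median of the list was 0.04. Map3k6 (0.87, adjusted p = 0.052), Hif3a (0.58, adjusted p = 0.060) and Sult1a1 (0.51, adjusted p = 0.088) had large differences without passing. The classical targets Sgk1 and Per1 differed by 0.04 ± 0.07 and 0.04 ± 0.04, with adjusted p of 0.87 and 0.748. The receptors themselves did not pass. Nr3c1, the glucocorticoid receptor, differed by -0.05 ± 0.03, and Nr3c2, the mineralocorticoid receptor, by -0.27 ± 0.10 (adjusted p = 0.147). Crh, the neuropeptide that starts the hormonal stress response, differed by 0.38 ± 0.16 (adjusted p = 0.236), and none of the 6 genes of the corticosteroid and CRH receptor list was called.

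Of 79 genes of neuronal activity, listed as transcription factors, effectors and feedback regulators, 7 were higher (8.86%, beside 0.869% of all genes), none was lower and 72 did not pass. Among 29 immediate early transcription factors the 3 that rose were Egr3, Fosb and Crem, and the median of the list was 0.08. Egr3, a zinc finger factor, lay at 89.67 to 127.99 CPM (median 103.09) without interaction and at 101.03 to 164.01 CPM (median 126.00) after it, with 8 of 20 social mice above the highest of the others. The difference was 0.28 ± 0.05 (adjusted p = 0.00178). Fosb, a Fos family member of the AP-1 complex, was at 8.13 to 16.8 CPM (median 11.8) and at 11.1 to 24.1 CPM (median 16.4), and 10 of 20 social mice lay above the range of the others. It differed by 0.44 ± 0.09 (adjusted p = 0.00874). Crem, which encodes activators and repressors of cAMP-driven transcription, differed by 0.21 ± 0.04 (adjusted p = 0.00901).

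The best known activity markers did not pass the test. Fos lay at 2.44 to 15.6 CPM (median 7.0) without interaction and at 3.64 to 12.7 CPM (median 8.83) after it, so its ranges overlapped fully, and the difference was 0.13 ± 0.20 (adjusted p = 0.849). Npas4, a factor that answers to calcium entry in neurons, was at 11.2 to 27.6 CPM (median 18.4) and at 15.4 to 28.7 CPM (median 23.5), with a difference of 0.25 ± 0.11 (adjusted p = 0.284). Arc, the postsynaptic regulator of receptor endocytosis, differed by 0.22 ± 0.13 (adjusted p = 0.429), Egr1 by 0.12 ± 0.08, Egr2 by 0.24 ± 0.14, Egr4 by 0.14 ± 0.08, Junb by 0.16 ± 0.07, Nr4a1 by 0.08 ± 0.10 and Ier2 by 0.04 ± 0.10.

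Among 34 effector genes the 3 that rose were Nptx2, Inhba and Homer1, and the median of the list was 0.08. Nptx2 encodes neuronal pentraxin 2, which neurons secrete to gather AMPA receptors at excitatory synapses on interneurons (chr5:144545902-144557478, plus strand). It lay at 14.2 to 34.1 CPM (median 24.6) without interaction and 25 to 46.8 CPM (median 36.7) after it, and 12 of 20 social mice exceeded every mouse without interaction. The difference was 0.56 ± 0.08 (adjusted p = 8.30e-05), and the values in the 4 sets of mouse numbers were 0.58, 0.76, 0.48 and 0.30. Inhba, the activin A subunit, went from a median of 6.48 CPM to one of 10.2 CPM and differed by 0.67 ± 0.14 (adjusted p = 0.0106). Homer1, a scaffold of metabotropic glutamate receptors, differed by 0.27 ± 0.06 (adjusted p = 0.0196). In the 4 sets of mouse numbers Inhba differed by 0.61, 1.20, 0.10 and 0.63 and Homer1 by 0.095, 0.47, 0.13 and 0.23. Bdnf, the neurotrophin, differed by 0.32 ± 0.14 without passing (adjusted p = 0.237), although it was called with library number or with oligodendrocyte and striatal marker levels as covariates. Of 16 regulators that feed back on MAP kinase signalling, Spry2 alone was called (0.15 ± 0.03, adjusted p = 0.0184), while Dusp1 differed by 0.16 ± 0.09 (adjusted p = 0.429). Without mice 57, 59 and 63 the calls that remained in these 3 lists were Egr3 (0.22, adjusted p = 0.0106) and Nptx2 (0.52, adjusted p = 0.000568). With runs as the unit, by limma, these 3 lists held no call (adjusted p = 0.0852 for Egr3 and 0.072 for Nptx2).

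**Figure D2:**
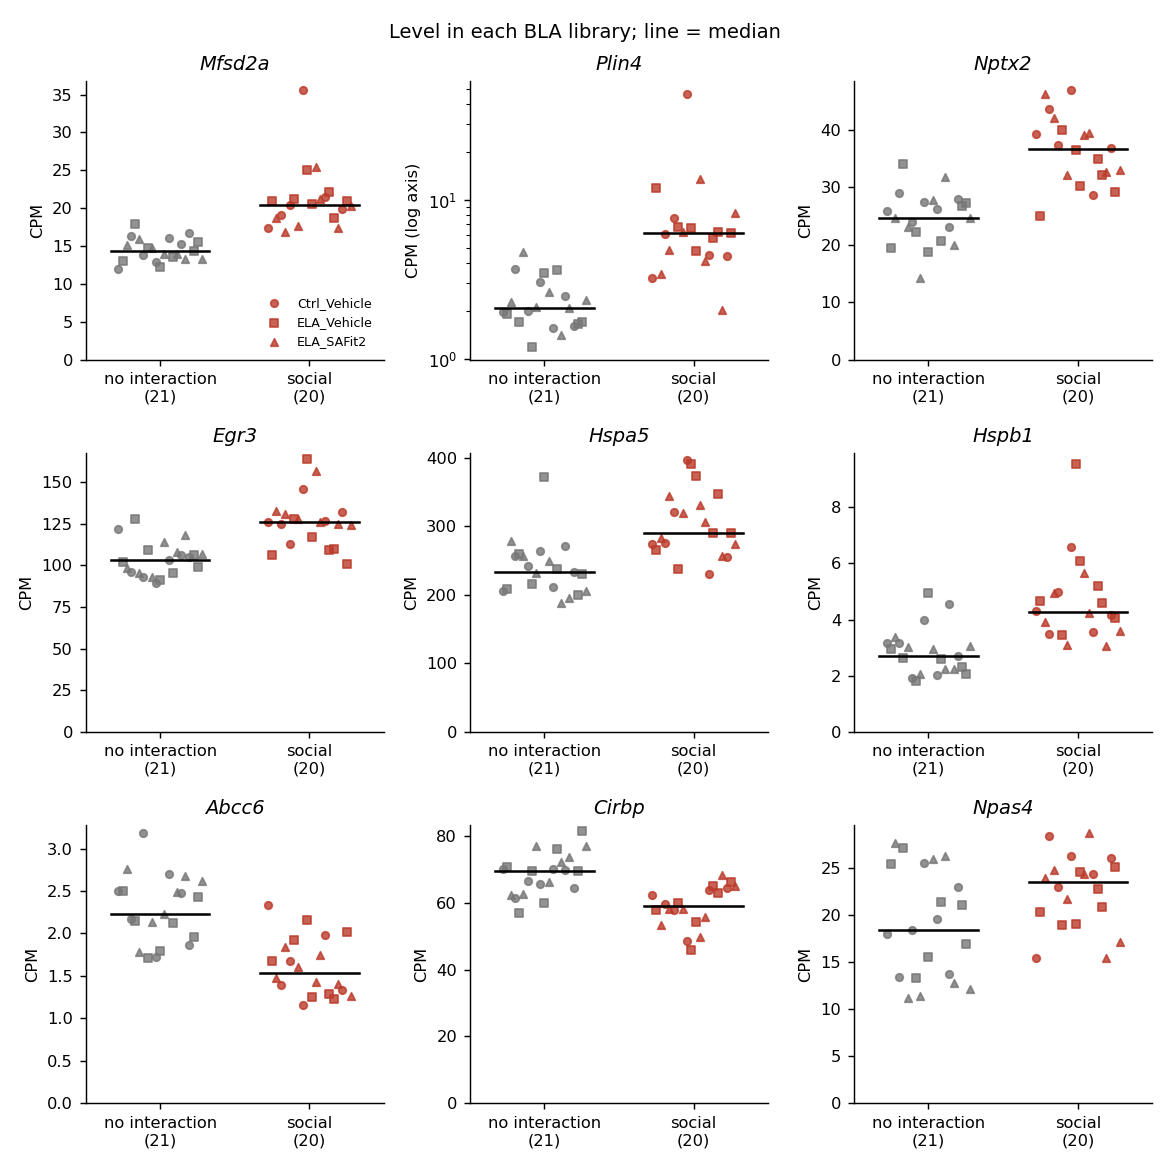
CPM in every BLA library for 9 genes, each symbol a mouse (its shape giving the early-life group) and each black line the median of the 21 mice without interaction (grey symbols) or the 20 with it (red symbols). The axis for Plin4 is logarithmic and the others start at 0. Mfsd2a, Plin4 and Nptx2 lie mostly above the grey range, Abcc6 and Cirbp mostly below the grey median, and Npas4 overlaps.

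The gene list with the largest share of calls was that of ER stress and ER folding. Of 14 members, 13 were tested, 8 rose (61.5%, beside 0.869% of all genes), none fell and 5 did not pass, with a median of 0.17. This list, like the others, was drawn up with earlier results of these mice known, so its share is not independent evidence. Hspa5 encodes BiP, the main Hsp70 chaperone of the ER. It stood at 188 to 372 CPM (median 234) without interaction and at 230 to 397 CPM (median 291) after it, so the sets overlapped, with 19 of 20 social mice above the median of the others. The difference was 0.34 ± 0.07 (adjusted p = 0.00874), and 0.24, 0.37, 0.37 and 0.33 within the sets of mouse numbers. Manf, a secreted ER-resident growth factor, went from 28.1 to 37.8 CPM (median 32.2) to 31.4 to 47.8 CPM (median 37.6) and differed by 0.26 ± 0.05 (adjusted p = 0.00316). Sdf2l1 and Creld2, both luminal folding factors, differed by 0.41 ± 0.10 and 0.21 ± 0.05. The lectin chaperone Calr, the Hsp90 of the ER Hsp90b1 and the disulfide isomerase Pdia6 differed by 0.23 ± 0.05, 0.17 ± 0.04 and 0.21 ± 0.06. Xbp1, the transcription factor spliced by the ER sensor IRE1, differed by 0.14 ± 0.04 (adjusted p = 0.0476), and its call was kept in 13 of the 41 fits without 1 library. Within the sets of mouse numbers Xbp1 differed by 0.02, 0.278, 0.135 and 0.053, and Creld2 by 0.008, 0.381, 0.137 and 0.271. The members that did not pass were Atf4 (-0.01), Herpud1 (0.03), Dnajb9 (0.05), Hyou1 (0.10) and Pdia4 (0.17). With the sets of mouse numbers as a covariate Xbp1 no longer passed (adjusted p = 0.0627) and 7 members were called. With runs as the unit this list, like every other list, had 0 calls.

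Several of these genes carry the same short element before their start. The ER stress element is the spaced motif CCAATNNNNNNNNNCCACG, read by the factors NF-Y and ATF6. It was searched on both strands of the 250 bases upstream of each start in the RefSeq promoter table (GRCm38.p6), where 37 of 32851 promoters held it (0.113%). Of the 8 ER genes that rose, 7 had a promoter in the table and 5 of these held the element (Hspa5, Calr, Hsp90b1, Pdia6 and Creld2), while Sdf2l1 and Xbp1 held none in this window. The list was drawn up as ER stress genes, so finding the ER stress element there is not a result of these mice. The stretches that hold it are shown 5′ to 3′ on the strand of the gene because they are what these members share outside the measured levels, with the fixed bases of the element in capitals. They lie at chr2:34772010-34772058 (plus), chr8:84847060-84847108 (minus), chr10:86705518-86705671 (minus), chr12:17266476-17266524 (plus) and chr15:88819505-88819553 (plus).
Hspa5: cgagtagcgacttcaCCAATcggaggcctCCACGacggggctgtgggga
Calr: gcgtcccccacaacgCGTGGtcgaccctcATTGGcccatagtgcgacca
Hsp90b1: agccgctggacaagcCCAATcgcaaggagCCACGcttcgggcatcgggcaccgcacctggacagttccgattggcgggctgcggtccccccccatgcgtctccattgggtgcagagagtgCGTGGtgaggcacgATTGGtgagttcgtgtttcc
Pdia6: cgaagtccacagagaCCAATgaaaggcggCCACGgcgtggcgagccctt
Creld2: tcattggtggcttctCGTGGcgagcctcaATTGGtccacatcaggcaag

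Hspa5 and Pdia6 carry the element in the direction of the gene, Calr and Creld2 carry it on the opposite strand, and Hsp90b1 has a copy in each direction. Among tested members of the list below the threshold, only Atf4, Herpud1, Dnajb9 and Pdia4 had a promoter to search. None of them held the element in this window, but they are too few to set against the members that rose. Hyou1 and Manf have no entry in the table. A match describes letters and not binding. The same search found the cAMP response element (TGACGTCA) before 9 of the 62 activity genes that have a promoter in the table (14.5%), among them Btg2, Dusp1 and Scg2, where 1.55% of all promoters held it. None of the 9 was called, and 4 of the 62 were. The called genes Egr3, Crem and Nptx2 have no entry in the table and were not searched. The heat shock element (GAANNTTCNNGAA) stood before 2 of the 11 heat shock genes with a promoter in the table (18.2%), Hspd1 and Hspe1, where 0.466% of all promoters held it. Neither was called, and 3 of the 11 were, while the called gene Hspa8 has no entry. Among 9 and 2 genes an absence of calls is not unusual at the shares called in these lists. Shares of list members count genes with the element in any of their entries, whereas shares of all promoters count entries.

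Of the 15 heat shock and chaperone genes tested, 4 rose (26.7%, beside 0.869% of all genes), none fell and 11 did not pass. All 15 differences were above 0, with a median of 0.10. Hspb1, the small heat shock protein Hsp27, went from 1.82 to 4.95 CPM (median 2.71) to 3.04 to 9.56 CPM (median 4.27) and differed by 0.70 ± 0.13 (adjusted p = 0.00316). Hsph1, an exchange factor of Hsp70, went from a median of 291 to 332 CPM and differed by 0.24 ± 0.05 (adjusted p = 0.00415). Hspa8, the constitutive Hsp70, differed by 0.14 ± 0.04 (adjusted p = 0.0225). Chordc1, a partner of Hsp90, differed by 0.13 ± 0.03 (adjusted p = 0.0475), a call kept in 11 of the 41 fits without 1 library. The strongly inducible Hspa1a and Hspa1b differed by 0.25 and 0.30 with adjusted p of 0.15 and 0.18. Cirbp, an RNA-binding protein that cold induces and warmth represses, moved the other way. It lay at 56.8 to 81.5 CPM (median 69.5) without interaction and at 45.8 to 68.1 CPM (median 58.9) after it, and the difference was -0.23 ± 0.05 (adjusted p = 0.00664). Its relative Rbm3 differed by -0.16 (adjusted p = 0.15). Without mice 57, 59 and 63, Manf remained of the 8 ER calls and Hspb1 and Hsph1 of the 4 heat shock calls. The medians of the lists were then 0.14 and 0.08, and Cirbp differed by -0.18 (adjusted p = 0.0341).

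**Figure D3:**
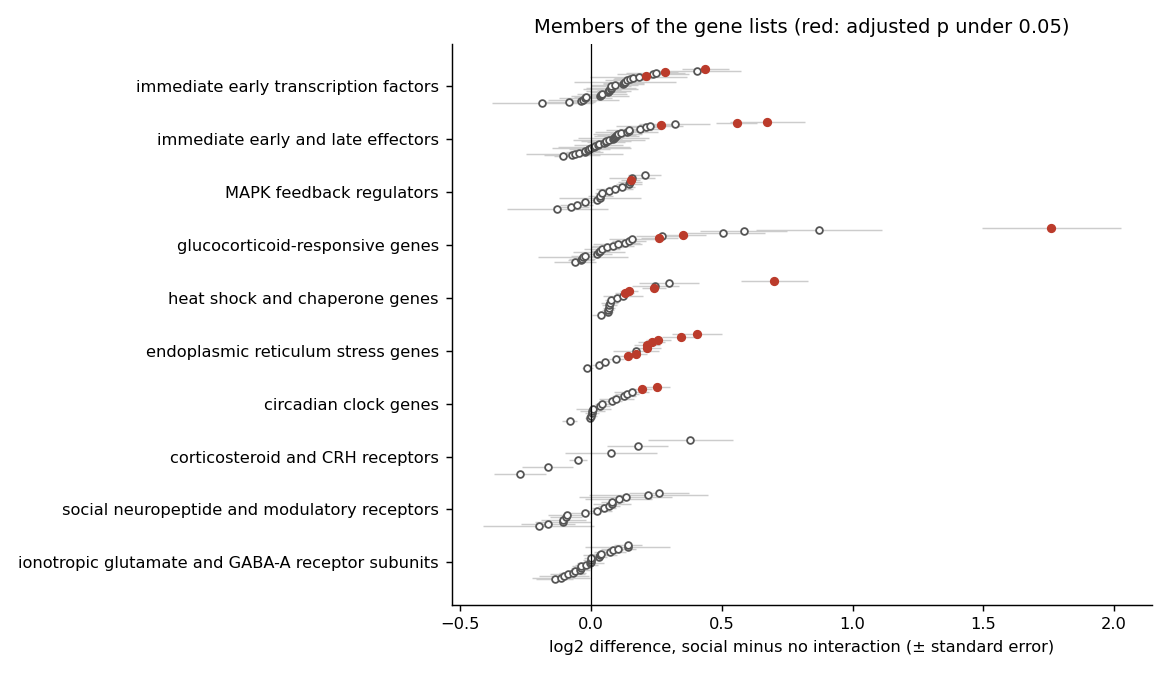
Difference between social and no interaction (log2, points with standard error) for the tested members of 10 gene lists, with genes past the threshold in red. The ER stress list holds 8 red points of 13 and the heat shock list 4 of 15, whereas the lists of receptors at the bottom hold none.

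Other genes with the smallest p among those that rose came from none of the lists. Xdh, the enzyme that makes uric acid, went from 3.03 to 5.75 CPM (median 4.37) to 4.12 to 22.7 CPM (median 6.83), with mouse 57 highest, and differed by 0.86 ± 0.14 (adjusted p = 0.000899). Pglyrp1, a peptidoglycan recognition protein, differed by 0.58 ± 0.08 (adjusted p = 0.000146), and 18 of 20 social mice exceeded every mouse without interaction. Htra1, a secreted serine protease, differed by 0.31 ± 0.06 and Fstl4, of the follistatin-like family, by 0.35 ± 0.06 (both adjusted p = 0.00316). Aff3, a nuclear protein of elongation complexes, showed a small and even rise, from 70.8 to 86.6 CPM (median 80.9) to 78.0 to 100 CPM (median 91), a difference of 0.18 ± 0.03 (adjusted p = 0.000462). Mettl11b differed by 0.92 ± 0.16 at levels of 0.167 to 1.19 CPM, close to the lower end of what was tested. Lhfp, Caap1 and Inka2 differed by 0.23, 0.20 and 0.26. Of 15 clock genes tested, 2 rose (13.3%, beside 0.869% of all genes) and 13 did not pass. These were Per2 (0.25 ± 0.05, adjusted p = 0.00415) and Npas2 (0.19 ± 0.04, adjusted p = 0.00874). Without mice 57, 59 and 63 Npas2 did not pass (0.16, adjusted p = 0.063).

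The gene with the smallest p among those that fell was Abcc6, a transporter of the ABC family that promotes ATP release. It lay at 1.71 to 3.18 CPM (median 2.23) without interaction and 1.16 to 2.34 CPM (median 1.54) after it, and 13 of 20 social mice lay below every mouse without interaction. The difference was -0.50 ± 0.09 (adjusted p = 0.00299), and -0.40, -0.39, -0.70 and -0.53 within the sets of mouse numbers. The rest of the 15 leading genes that fell changed by little. They included Gpam, the first enzyme of glycerolipid synthesis (-0.17 ± 0.03), Slc9a9, an endosomal sodium-proton exchanger (-0.18 ± 0.03), and Chrnb2, the beta 2 subunit of nicotinic acetylcholine receptors (-0.11 ± 0.02). Sox4, a developmental transcription factor, differed by -0.19 ± 0.04, and the ceramide-1-phosphate transfer protein gene Cptp by -0.15 ± 0.03. Nop58 and Las1l, both needed to make ribosomes, differed by -0.14 ± 0.03 and -0.10 ± 0.02. Zkscan2, Zbtb22, Prkra, Orc2, 2210408I21Rik and 5730455P16Rik differed by -0.29 to -0.09.

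A small group of genes that fell had another character. Sim1, Otp, Ucn3 and Ppp1r17 were named after their values were seen. Sim1 and Otp are transcription factors of hypothalamic and medial amygdala neurons, and Ucn3 is a neuropeptide of the same territory. The first 3 of them had the largest drops among called genes, -2.52 ± 0.67 for Sim1, -1.95 ± 0.47 for Otp and -2.40 ± 0.54 for Ucn3 (adjusted p = 0.0405, 0.0223 and 0.0161), at very low levels. Otp reached 1 CPM in 6 of the 21 mice without interaction and in 0 of the 20 social mice, and Ucn3 did so in 7 and in 1. Sim1 reached it in 2 and 0, and Ppp1r17 in 4 and 0. Their high values thus came from few libraries. With the mean level of Sim1, Otp and Ucn3 as a covariate, 5 genes were called, all higher, among them Mfsd2a, Pglyrp1 and Nptx2, and 256 of the 257 genes kept their sign. These 3 genes were chosen because they differed, so such a covariate carries part of the interaction itself. The part of these libraries in the other differences was not tested.

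Among cell type markers, only Cspg4 (oligodendrocyte precursors, 0.14 ± 0.03), Gjb6 (astrocytes, 0.28 ± 0.07) and Ly6c1 (endothelium, 0.27 ± 0.06) passed. They were 1 of 5, 1 of 8 and 1 of 12 tested in their lists, beside 0.869% of all genes higher. The list medians were -0.02, 0.00 and -0.01. Without mice 57, 59 and 63 Cspg4 still passed (adjusted p = 0.0493), and Gjb6 (adjusted p = 0.152) and Ly6c1 (adjusted p = 0.142) did not. None of the markers of inhibitory neurons, oligodendrocytes, microglia, meningeal fibroblasts or the central amygdala and striatum was called, nor any of 5 red blood cell genes. Central amygdala and striatal markers summed to 1382.49 to 5564.95 CPM (median 2372.62) after interaction and 998.23 to 4562.20 CPM (median 2344.22) without it, and oligodendrocyte markers to 2550 to 5680 and 2380 to 7420 CPM. Of the 15 central amygdala and striatal markers 13 had a difference above 0, with a median of 0.14. Without mice 57, 59 and 63, 6 of the 15 were above 0 and the median was -0.005. Of the 10 oligodendrocyte markers 1 had a difference above 0, with a median of -0.07. With the levels of both marker lists as covariates 323 genes were higher and 419 lower. None of 16 neuropeptides and none of 16 social neuropeptide and modulatory receptors passed, where 0.869% of all genes were higher, so lists of this size would hold few calls at the share of all genes. With oligodendrocyte and striatal marker levels as covariates the neuropeptides Cck and Vip were called higher. Oxtr, the oxytocin receptor, was at 15.4 to 26.6 CPM (median 19.7) and 15.9 to 25.5 CPM (median 18.9), a difference of -0.03 ± 0.06 (adjusted p = 0.925). None of 22 subunits of glutamate and GABA-A receptors and none of 12 interferon-stimulated genes was called.

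Whether the response depended on early-life background was tested gene by gene. Within Ctrl_Vehicle, ELA_Vehicle and ELA_SAFit2 taken alone, edgeR called 0 genes in each (0% of 15992), with 1177, 1180 and 1109 genes at an unadjusted p under 0.05 and the smallest adjusted p at 0.0698 (Mfsd2a), 0.168 (Mfsd2a) and 0.176 (Nptx2). DESeq2 called 7, 11 and 14. The Mfsd2a difference was 0.60, 0.56 and 0.45 in the 3 groups in that order, and the Nptx2 difference was 0.56, 0.43 and 0.68. The Plin4 difference was 2.38, 1.66 and 1.27, and that of Hspa5 was 0.28, 0.35 and 0.40. Tests of the differences between backgrounds also called 0 genes by edgeR in each of the 3 pairings (0%), with 392 genes for ELA_Vehicle against Ctrl_Vehicle, 605 for ELA_SAFit2 against ELA_Vehicle and 529 for ELA_SAFit2 against Ctrl_Vehicle at an unadjusted p under 0.05. Each of these counts at an unadjusted p lies under the share of 0.05 of tested genes that chance would give. DESeq2 called 1, 4 and 5. These counts do not show that the responses were alike, since each group held at most 7 mice. Adversity and SAFit2 were assigned to whole litters and their dams. The litter of each mouse is not given in the sources used here, so it was in no fit.

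The smallest adjusted p of those differences were 1 (2700062C07Rik), 0.0524 (Cwc22) and 0.644 (Tmem178b). Cwc22, a splicing factor gene, has near-identical copies between which reads can be shared, so its level is uncertain. It lay near 23.4 CPM in most mice and reached 517 CPM in a mouse without interaction and 550 CPM in one with it. The pair of ELA_Vehicle mice without interaction and the pair of ELA_SAFit2 mice with it that were that high set its difference.

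To see what set the BLA apart, the response was compared within each mouse with its mean over 4 other regions, the ventral hippocampus (vHipp), dorsomedial thalamus (DMT), anterior cingulate cortex (ACC) and medial prefrontal cortex (mPFC). In this paired test, by limma, 1 gene was called (0.00625% of 15992), with 1152 at an unadjusted p under 0.05. It was Gtf3c3, a subunit of the RNA polymerase III factor TFIIIC. Its response in the BLA was -0.04 ± 0.02 and elsewhere it was 0.06 (mPFC), 0.08 (ACC), -0.01 (DMT) and 0.05 (vHipp), a difference of -0.09 ± 0.01 (adjusted p = 0.0128). This size is far under those of the leading genes.

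The other regions were also tested one by one. In the mPFC 1202 genes were called (7.6% of those tested), the ACC gave 669 (4.26%), the DMT 290 (1.83%) and the vHipp 222 (1.41%). In the nucleus accumbens (Nacc), whose libraries did not all match their mouse numbers in earlier work, edgeR called 0 of 15881 genes (0%), with 387 at an unadjusted p under 0.05. That count is below the share of 0.05 that chance would give. Of the 257 BLA genes, 121 were called with the same sign in the mPFC, which is 47.1% of the BLA genes and 10.1% of the mPFC genes. For the ACC the number was 104 (40.5% and 15.5%), for the DMT 70 (27.2% and 24.1%) and for the vHipp 68 (26.5% and 30.6%). The regions come from the same mice, so these are not separate experiments. The 36 genes called in all 4 others with one sign included Mfsd2a, Plin4, Fkbp5, Fosb, Per2, Abcc6, Cirbp, Hspb1, Hspa5 and Manf.

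Set against single regions, some activity genes differed. Against the mPFC alone, 37 genes differed in their response, 5 more positive and 32 more negative in the BLA. Among the latter were Egr3 (0.28 in the BLA and 0.89 in the mPFC, difference -0.63, adjusted p = 0.00363), Fosb (0.44 and 0.85, difference -0.46, adjusted p = 0.0123) and Homer1 (0.27 and 0.58, difference -0.32, adjusted p = 0.0228). Against the DMT alone, 3 genes differed. Nptx2 was 0.56 in the BLA and 0.03 in the DMT (difference 0.54, adjusted p = 0.0232), the inducible chaperone gene Hspa1b was 0.30 and 0.81 (difference -0.47, adjusted p = 0.0232), and Vsig10l differed by -0.41 (adjusted p = 0.0326). Some other leading responses are given side by side. Hspa5 was 0.34 in the BLA and 0.41 to 0.50 elsewhere, Plin4 was 1.76 and 1.87 to 2.54, and Mfsd2a was 0.54 and 0.40 to 0.50.

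**Figure D4:**
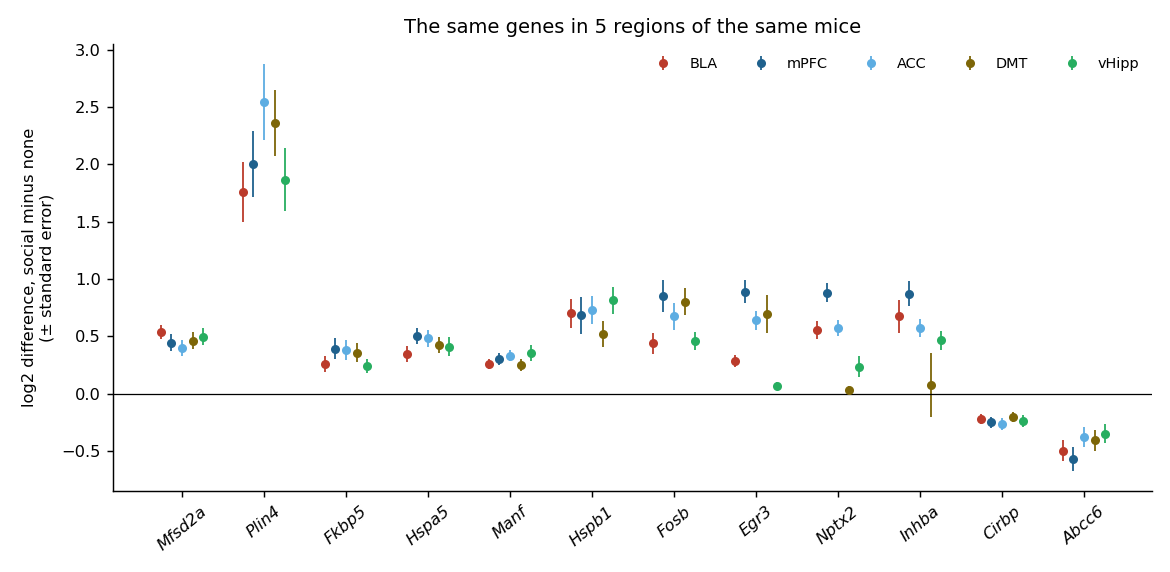
Response to interaction (log2 difference with standard error) of 12 genes in the BLA and in 4 other regions of the same mice. Mfsd2a, Hspa5, Manf and Cirbp lie close together in every region, whereas Egr3 spans 0.07 to 0.89 and Nptx2 spans 0.03 to 0.88.

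**Figure D5:**
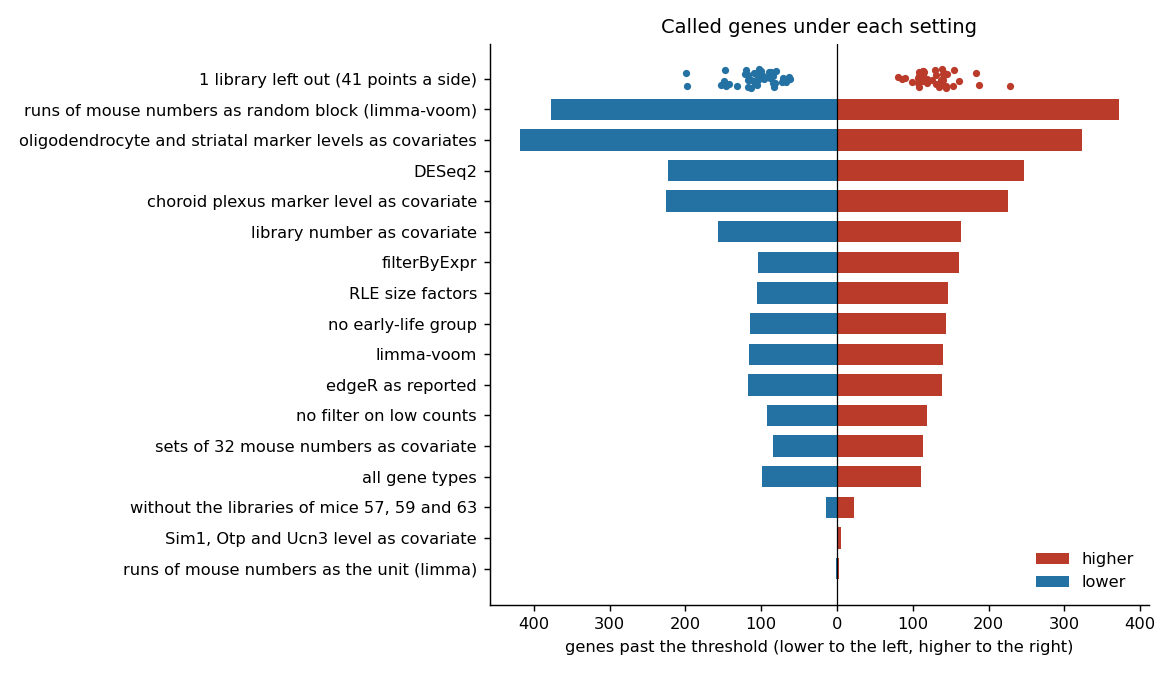
Number of BLA genes called higher (to the right) and lower (to the left) under each setting, with a point on each side for every fit that left out 1 library. The count as reported is 139 and 118, and the bars run from 372 and 378 with runs as a random block, or 323 and 419 with marker levels as covariates, down to 2 and 2 with runs as the unit.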

How the data were processed

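The authors deposited a gene table of estimated counts from salmon, with no scaling for depth. Submitters' notes also name STAR, DESeq2 and the build GRCm39. Of the deposited estimated counts, 12.12% were not whole and were rounded. RNA was poly-A selected from bilateral punches, with stranded libraries. Identifiers were matched without version to GENCODE M21 (52073 of 56691), 978 were typed by RefSeq symbol and 3640 were left out. Coordinates are GRCm38, not the submitters' build.

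Protein-coding genes were kept if their BLA counts added up to 100 or more and 6 or more BLA libraries held a count, and were tested with edgeR 4.0.16 (TMM, quasi-likelihood, Benjamini-Hochberg over all tested genes) in R 4.3.3. Early-life group was the covariate. The paired region test used limma 3.58.1 on log2 CPM (prior count 2) of the BLA minus the mean of 4 regions. DESeq2 1.42.0 was an alternative. The Nacc was left out of the main region test because earlier work found Nacc libraries that did not match their mouse number. Each of the 41 BLA libraries correlated best with its own mouse in the other regions (0.863 at the lowest, 0.633 at most with another mouse, over 60 genes), so mouse numbers pair regions. In simulated BLA data, 84% of genes changed by 0.25 on the log2 scale were recovered among 15992, and 9 unchanged genes were called. Mice were simulated as independent, without runs or variation shared by many genes, so this share need not hold for the real data.

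Named genes are fixed activity and hormone genes, the 15 smallest p in each direction, list members past the threshold and the smallest p of each difference. The members and lists were chosen with earlier results of these data known. Bmal1 is listed in the file as Arntl and was left out of its list (0.05, adjusted p = 0.536), and Lcn2 and Ddit3 were below the filter. The 3 mice and the 3 covariate genes of settings added later were chosen after seeing the data.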

Additional observations from a re-analysis of the deposited data

Results flagged for a closer look

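For 73 named genes, each of the 6 groups was searched for a mouse whose log2 level stood apart from the rest by Dixon's criterion. Of 438 groups 44 had one (10%), where about 1 in 20 is the rate by chance for independent groups, and the genes and groups here are not independent. Values are CPM.

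Mouse 57 (Ctrl_Vehicle, social) was high for Plin4 (46.7), Mfsd2a (35.6), Xdh (22.7), Cdkn1a (21.2), Lhfp (18), Pglyrp1 (7.46) and Hspa8 (1340) and low for 2210408I21Rik (8.85). Mouse 59 (ELA_Vehicle, social) was high for Homer1 (263), Hsph1 (461), Chordc1 (89.3) and Per1 (115) and low for Nop58 (39) and Prkra (10.6). Mouse 63 (ELA_SAFit2, social) was high for Egr1 (156), Egr3 (157), Fstl4 (47), Gjb6 (29.3), Inka2 (92.2), Mettl11b (1.05), Npas2 (78.8) and Spry2 (40.5). These 3 mice share a run of mouse numbers, and whether their handling differed was not tested.

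Mouse 43 (ELA_Vehicle, no interaction) was high for the ER chaperones Calr (461), Hsp90b1 (405), Hspa5 (372) and Pdia6 (119) and low for Nr3c1 (85.3). Mouse 13 of the same group was high for Homer1 (192), Inka2 (77.7) and Npas2 (68.2). Mouse 17 (Ctrl_Vehicle, social) was low for Npas4 (15.4) and Orc2 (22.7) and high for Slc9a9 (11.8), and mouse 9 (Ctrl_Vehicle, no interaction) was high for Chordc1 (72.5) and low for Mettl11b (0.167). Mouse 39 (ELA_SAFit2, no interaction) was low for Npas2 (52.1) and Zbtb22 (26.4), and another mouse of that group was low for Caap1 (5.28) and Oxtr (15.4). Single values were those of mouse 21 for Plin4 (11.9), mouse 23 for Crem (9.73), mouse 49 for Sox4 (16.3), mouse 89 for 2700062C07Rik (12.9) and mouse 95 for Prkra (15.3). The response of Gtf3c3, which differed between the BLA and the mean of the 4 other regions by -0.086 on the log2 scale, was the one difference between regions past the threshold.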

How the results depend on the processing

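The counts of 139 higher and 118 lower genes moved with the setting. They were 247 and 223 with DESeq2, 372 and 378 with runs of mouse numbers as a random block, 323 and 419 with oligodendrocyte and striatal marker levels as covariates and, among settings chosen after seeing the data, 226 and 226 with the choroid plexus level, 5 and 0 with the Sim1, Otp and Ucn3 level, 23 and 15 without mice 57, 59 and 63, and 2 and 2 with runs as the unit. The causes were not tested. In the random block fit the estimated correlation within runs was -0.0402. Interaction status is constant within a run, and a negative correlation lowers the standard error of a comparison between runs. The larger counts of that fit are therefore not stronger evidence. Leaving out 1 library gave 81 to 228 higher and 62 to 199 lower genes. By library, these counts were 81 and 64 without mouse 63, 86 and 62 without mouse 57, 90 and 71 without mouse 59, 99 and 73 without mouse 37, 108 and 67 without mouse 39, 228 and 198 without mouse 13, and 183 and 199 without mouse 95. Of 52 named genes called, 45 kept the call without any 1 library, and none reversed under any setting. Every setting used mice that had chosen these genes, so a kept sign is not separate evidence. Cdkn1a, Chordc1, Fkbp5, Gjb6, Hsp90b1, Pdia6 and Xbp1 did not keep it throughout. Genes that were never called reversed from near 0. With the Sim1, Otp and Ucn3 level, Sgk1 was at -0.092, Nr3c1 at 0.008 and Oxtr at 0.006, and without mice 57, 59 and 63 Sgk1 was at -0.019 and Oxtr at 0.002.

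Within single groups, 0 calls by edgeR became 7 (Ctrl_Vehicle), 11 (ELA_Vehicle) and 14 (ELA_SAFit2) with DESeq2, and 0 to 2 in each without 1 library. Differences of the response went from 0 to 1, 4 and 5 with DESeq2, and that of ELA_SAFit2 minus ELA_Vehicle ranged from 0 to 4 without 1 library. For the BLA against other regions, where mice are paired, 1 gene became 37 against the mPFC alone, 3 against the DMT alone, and 3 with no replicate block. Small levels, such as those of Sim1, limit every fold given for them.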

Other observations

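The genes named here all passed the threshold and were chosen after their values were seen. Partners of the chaperones included Ahsa1 at 0.13 ± 0.03, Stip1 at 0.15 ± 0.04, Dnaja1 at 0.10 ± 0.03, Dnajb11 at 0.15 ± 0.04 and Pdia3 at 0.15 ± 0.04. Ahsa1 stimulates Hsp90, and Stip1 links it to Hsp70. Dio2, which turns thyroxine into active thyroid hormone in astrocytes, went from a median of 23.1 to 31.7 CPM (0.46 ± 0.09, adjusted p = 0.00815). Glutamine synthetase (Glul) rose by 0.23 ± 0.05 and Gpt2, a transaminase, by 0.18 ± 0.04. The monocarboxylate transporter gene Slc16a1 differed by -0.27 ± 0.07, and by -0.30 to -0.22 in the 4 other regions. Mertk, a receptor with which glia engulf debris, rose by 0.33 ± 0.07 (adjusted p = 0.0117). Among genes of cell division, Ccnb1, Cenpa and Kif20a rose by 0.47, 0.45 and 0.39 (adjusted p = 0.0194, 0.0194 and 0.0405), and Tacc3 differed by -0.21 (adjusted p = 0.0464). Levels of Ccnb1, Cenpa and Kif20a were low, with medians of 0.665, 0.755 and 0.609 CPM without interaction and 0.923, 0.963 and 0.836 CPM after it.

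Receptor genes moved in both directions, with Igf1r, the receptor of insulin-like growth factor 1, higher by 0.20 (adjusted p = 0.0129) and Ednrb, an endothelin receptor, differing by -0.18 (adjusted p = 0.0462). Htr7, a serotonin receptor coupled to cAMP, went from 10.1 to 22.0 CPM (median 13.3) to 8.33 to 15.7 CPM (median 11.2), a difference of -0.32 ± 0.08 (adjusted p = 0.0221), while its differences in the mPFC, ACC, DMT and vHipp were -0.06, -0.02, 0.02 and -0.02. The nociceptin receptor gene Oprl1 differed by -0.19 ± 0.05 (adjusted p = 0.0225) and the adenylate cyclase Adcy8 by -0.26 ± 0.07 (adjusted p = 0.0303). Neither Htr7 nor these passed the test of the BLA against the 4 other regions.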
